A study of Homo sapiens with 18 samples.

Results

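L1CAM, CDH5, ADORA1, AZGP1, ALOX15B, NOS3 and HTR3A were 7 of the 16575 genes measured by CAGE-seq, the sequencing of capped 5′ ends of RNA, in bladder cancer cells with overexpression of AP-2α or AP-2γ. The genes were chosen by their CPM values, which in several cell lines were higher in variants with AP-2 than in the control variant KK, so every difference from KK below describes that choice and carries no test. All 7 were among the 13022 genes that reached 5 CPM in a library, 6 of them without the library labelled CAL-29 KC, which is shown apart. The data fitted the choice unevenly. L1CAM and ADORA1 were highest with AP-2 in RT-112, whereas AZGP1, ALOX15B, NOS3 and HTR3A were high in HT-1376 also in WK, which received WWOX and no AP-2, and CDH5 was lower than KK in 5 of its 11 AP-2 libraries. NOS3 was lower than KK in 7 of 11, all of RT-112 and CAL-29, where KK held only 2 and 7 reads.

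The study placed 6 variants in each of 3 human bladder carcinoma lines (CAL-29, HT-1376 and RT-112), with 1 library per line and variant (18 libraries). All cells went through 2 lentiviral transductions at a multiplicity of infection of 3. The first introduced WWOX in pLenti-GIII-CMV-GFP-2A-Puro (W) or a blank control (K), followed by 1 µg/mL puromycin, and the second introduced AP-2α (A) or AP-2γ (C) in pLKO-Neo-CMV, or a blank control (K), followed by 400 µg/mL G418 for 3 weeks. KK therefore carried both blank controls, KA and KC only AP-2α or AP-2γ, WK only WWOX, and WA and WC the combination of WWOX with AP-2α or AP-2γ. The CMV promoter, which is active in most cells, drove each transgene, and the selection is described as clone selection without the number of clones. Values are CPM (read counts scaled to the library total), 1 value per gene and library, and the reads behind them were recovered from the steps in the values. Between 13357102 and 17958572 reads per library fell on genes, so that 3 reads, taken as the limit for a gene without reads, were worth 0.158 to 0.213 CPM. Intervals in the text are exact 95% Poisson intervals, or intervals of a ratio conditional on the sum of reads, and cover counting error only.

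AP-2α and AP-2γ, encoded by TFAP2A and TFAP2C, are transcription factors that bind GC-rich elements as dimers and act in epithelial, neural crest and skin development. WWOX is a WW domain protein that binds proline-rich motifs of other proteins, AP-2 factors among them. The 7 genes have no common pathway. L1CAM is an immunoglobulin-type adhesion molecule known from neurons, CDH5 is VE-cadherin of endothelial junctions, ADORA1 is the Gi-coupled adenosine A1 receptor and HTR3A is a subunit of the serotonin-gated 5-HT3 ion channel. AZGP1 is a secreted zinc-binding glycoprotein, ALOX15B is a lipoxygenase that oxidizes arachidonic acid, and NOS3 is the nitric oxide synthase of endothelium.

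The members lie on 6 chromosomes (GENCODE 44, GRCh38). L1CAM spans chrX:153861514-153886173 on the minus strand and CDH5 chr16:66366690-66404784 on the plus strand. ADORA1 spans chr1:203090654-203167405 (plus), AZGP1 chr7:99966720-99976042 (minus) and NOS3 chr7:150991017-151014588 (plus). ALOX15B spans chr17:8039034-8049134 (plus) and HTR3A chr11:113975075-113990313 (plus). NOS3 overlaps ATG9B on the opposite strand, and whether reads were counted by strand is not given in the sources used here.

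Promoter sequences are shown because an AP-2 factor would act there and because CAGE tags mark transcript starts. RefSeq windows (GRCh38.p14, 250 bases before to 50 after a start) were found for 4 of the 7 members, ADORA1, AZGP1, NOS3 and L1CAM, and not for CDH5, ALOX15B and HTR3A. The 250 bases before the start are printed 5′ to 3′ on the strand of the gene, with matches to the AP-2 element GCCNNNGGC, or to its form with a spacer of 4 bases, in capitals. These are chr1:203127476-203127725 (plus) for ADORA1, chr7:150993532-150993781 (plus) for NOS3, chrX:153875945-153876194 (minus) for L1CAM and chr7:99976032-99976281 (minus) for AZGP1.
ADORA1: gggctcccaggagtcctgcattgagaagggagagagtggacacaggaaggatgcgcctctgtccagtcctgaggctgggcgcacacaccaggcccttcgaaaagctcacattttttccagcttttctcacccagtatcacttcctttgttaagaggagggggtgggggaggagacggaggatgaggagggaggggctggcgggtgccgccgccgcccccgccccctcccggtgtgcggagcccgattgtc
ADORA1, after the start: GCCGGGGGCgacagaGCCGCAGGC
NOS3: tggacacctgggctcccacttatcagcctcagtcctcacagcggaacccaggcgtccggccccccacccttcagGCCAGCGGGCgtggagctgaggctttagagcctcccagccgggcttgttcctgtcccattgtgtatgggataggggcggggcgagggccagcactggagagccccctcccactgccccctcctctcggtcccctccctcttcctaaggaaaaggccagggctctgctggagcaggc
L1CAM: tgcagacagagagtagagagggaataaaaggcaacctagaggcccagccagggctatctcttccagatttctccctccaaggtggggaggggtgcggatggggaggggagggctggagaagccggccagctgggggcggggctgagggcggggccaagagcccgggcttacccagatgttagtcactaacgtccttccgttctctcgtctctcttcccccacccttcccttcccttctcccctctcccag
AZGP1: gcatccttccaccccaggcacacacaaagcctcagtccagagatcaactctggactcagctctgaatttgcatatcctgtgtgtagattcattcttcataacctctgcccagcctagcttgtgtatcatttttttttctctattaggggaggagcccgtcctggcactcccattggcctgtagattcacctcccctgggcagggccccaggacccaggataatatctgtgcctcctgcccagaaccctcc

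ADORA1 held 2 matches to GCCNNNGGC, both in the 24 bases printed on a line of their own, which are bases 14 to 37 of those that follow the window's start site (chr1:203127739-203127762). NOS3 held 1 match to the longer form in each of its 2 windows, which share the bases of the match. The windows of L1CAM, the member with the highest level in the AP-2 variants of RT-112, and of AZGP1, the gene above KK in every AP-2 library, held neither element. Both strands were searched, although the 2 elements read the same on either strand, and a base can belong to a match of each. Of 35116 RefSeq windows, 23.2% held GCCNNNGGC, 21.4% held the longer form and 36.7% held either element. The further elements CCCNNNGGG and TATAAA, present in 17.5% and 11.5% of windows, were in none of the 6 member windows. AZGP1 had the lowest GC content of the windows, 52.7% against a median of 58.7% over all windows, and a CpG observed to expected ratio of 0.05 against a median of 0.58. The deposited table has 1 value per gene, so the start that the tags came from was not analysed here.

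The overexpressed genes were examined first. TFAP2A was higher in KA than in KK in each line, at 46.77 against 18.01 CPM in RT-112, 100.66 against 68.99 CPM in HT-1376 and 49.88 against 35.43 CPM in CAL-29. TFAP2C was higher in KC than in KK, at 263.7 against 57.95 CPM in RT-112 and 213.93 against 158.24 CPM in HT-1376. With WWOX, TFAP2C was higher in WC than in WK in all 3 lines, with ratios of 3.64 in CAL-29, 2.54 in RT-112 and 2.36 in HT-1376. In HT-1376 the WK level was itself low, at 68.99 CPM or 0.436 of KK. There WC held 162.76 CPM of TFAP2C, 1.03 times KK (interval 0.974 to 1.09), and WA 0.62 of KK. In the library labelled HT-1376 WA, TFAP2A was not above WK, at 69.91 CPM against 76.9 CPM (ratio 0.909, interval 0.839 to 0.985). In the library labelled RT-112 WA, TFAP2A was at 25.32 against 20.31 CPM in WK, while TFAP2C was at 179.87 CPM, above the 142.75 CPM of WC. WWOX was at 18.45 to 22.33 CPM in the W variants of RT-112 and at 23.52 to 26.04 CPM in its K variants. In HT-1376 WWOX was at 18.58 to 23.06 CPM in W variants and 16.95 to 24.74 CPM in K variants, and the CAL-29 libraries had 154.92 CPM in WK, 69.27 in WA and 62.36 in WC, against 63.68 in KK and 51.31 in KA. Among the CAL-29 W libraries WK was thus well above KK, while WA and WC were at 1.09 and 0.979 times KK. A tag that starts in a CMV vector need not be counted on the native gene, so these values check the labels only in part, and every direction below is drawn between libraries as labelled. The study also blotted the WWOX and AP-2 proteins to check the transductions, and those blots were not examined here.

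The library labelled CAL-29 KC stands apart and is given separately. Over the 13022 genes that reached 5 CPM in 1 library or more, its log2 values correlated with those of HT-1376 KK and KA at r = 0.968 and with CAL-29 KK at r = 0.72. KRT14, a basal keratin, was at 198.76 CPM in it, against 0.05 to 1.12 CPM in the other CAL-29 libraries and 345.55 to 766.29 CPM in HT-1376. The label of cell type held in general, with the 12 urothelial and epithelial markers at a summed 5574.7 to 26458 CPM and none at 0 in the other 17 libraries. Of the 11 endothelial markers, 3 (ESAM, ENG and ROBO4) had a row in the table and summed to 3.3 to 29.4 CPM, while PECAM1, VWF, KDR, TEK and CLDN5 had none.

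**Figure D1:**
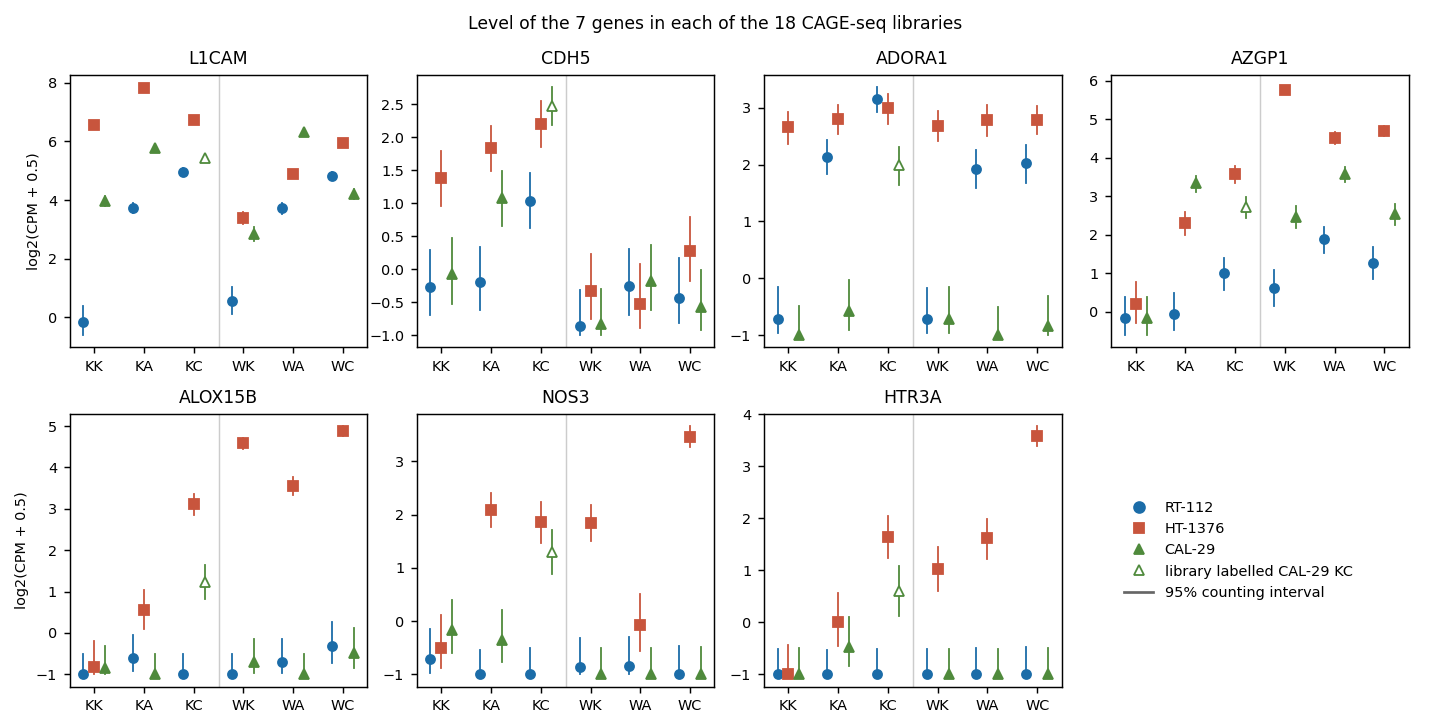
Level of each gene on the log2(CPM + 0.5) scale (y axis) in the 6 variants (x axis) of RT-112 (circles), HT-1376 (squares) and CAL-29 (triangles, open for the library labelled KC), 1 library per point, with bars for the 95% counting interval. ADORA1 lay between 5.79 and 7.45 CPM in all HT-1376 variants and at 3.3 to 8.39 CPM in the AP-2 variants of RT-112 against 0.11 CPM in KK and WK, while ALOX15B, NOS3 and HTR3A exceeded 1 CPM only among HT-1376 libraries and in the library shown by the open triangle.

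L1CAM had the highest level of the members in the AP-2 variants of RT-112. KK held 0.39 and WK 0.98 CPM, the variants without AP-2. The AP-2α variants KA and WA held 12.73 and 12.74 CPM, and the AP-2γ variants KC and WC 30.68 and 27.85 CPM. All 4 AP-2 libraries thus lay above both libraries without AP-2, and those labelled with AP-2γ lay above those labelled with AP-2α. As given above, the library labelled WA held more TFAP2C than WC (179.87 against 142.75 CPM), so this order of the factors rests on the labels. Relative to KK the ratios were 32.6 in KA (interval 15.7 to 82.5) and 78.7 in KC (38.1 to 198), and the intervals of KC and WC, of WA and KA, and of WK and KK overlapped.

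In CAL-29, L1CAM was at 15.08 CPM in KK, 53.69 in KA, 6.69 in WK, 79.85 in WA and 17.99 in WC. KA was 3.56-fold and WA 5.3-fold above KK, while WC was 1.19-fold above KK (interval 1.01 to 1.41). These are ratios of CPM without TMM scaling between libraries. With the TMM factors of CAL-29 KK (1.5119) and WC (1.0409), the WC ratio to KK would be larger. WC was 2.69-fold above WK (interval 2.18 to 3.35). In the library labelled CAL-29 KC the level was 42.68 CPM.

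HT-1376 expressed L1CAM without any transgene, at 94.97 CPM in KK, 224.35 in KA and 105.3 in KC, with 10.09 in WK, 29.01 in WA and 61.69 in WC. All 3 W variants were lower than all 3 K variants, and no neighbours in the order KA, KC, KK, WC, WA, WK had overlapping intervals. KA was 2.36-fold above KK and KC 1.11-fold. WA and WC were below KK, at 0.305 and 0.65 of its level, but 2.88-fold and 6.11-fold above WK.

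ADORA1 was near absent in RT-112 without AP-2, with 2 reads (0.11 CPM) in both KK and WK. It was at 3.89 CPM in KA, 8.39 in KC, 3.3 in WA and 3.56 in WC. The ratio to KK was 35.4 in KA (interval 9.39 to 296) and 76.3 in KC (20.6 to 631), the width coming from the 2 reads of KK. KC alone stood above the other AP-2 variants, whose intervals overlapped in order.

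In HT-1376, ADORA1 was at 5.79 CPM in KK, 6.47 in KA and 7.45 in KC, with 5.91 in WK, 6.39 in WA and 6.41 in WC. No neighbours in the order of levels differed beyond counting error, and the ratios to KK were 1.12 in KA (interval 0.839 to 1.49) and 1.29 in KC (0.96 to 1.73). CAL-29 had 0 to 3 reads of ADORA1 in each library other than the one labelled KC, where it was at 3.46 CPM. Setting that library apart, RT-112 was the line with ADORA1 at least 2-fold above KK in AP-2 variants, and KK of HT-1376 already held a level in the range of the AP-2 variants of RT-112.

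Every AP-2 library of RT-112 was at least 2-fold above both KK and WK for L1CAM and ADORA1 and for none of the other members. Of all genes, 0.184% (24 of 13022) had this arrangement, a share that the choice of members does not allow to be read as a result.

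CDH5 was low throughout. In RT-112 it was at 0.33 CPM in KK, 0.37 in KA and 1.55 in KC, with 0.05 in WK, 0.34 in WA and 0.24 in WC. In HT-1376 it was at 2.1 CPM in KK, 3.06 in KA and 4.11 in KC, with 0.29 in WK, 0.19 in WA and 0.71 in WC, and CAL-29 held 0.45 CPM in KK, 1.6 in KA, 0.06 in WK, 0.38 in WA and 0.17 in WC. KC was above KK in RT-112 (ratio 4.7, interval 1.9 to 13.7) and HT-1376 (1.96, 1.25 to 3.11), and KA in CAL-29 (3.56, 1.59 to 9.05). In the other direction, WA and WC of HT-1376 were at 0.0905 and 0.338 of KK. CDH5 passed 5 CPM only in the library labelled CAL-29 KC (5.07 CPM), so it entered the fit over genes through that library.

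AZGP1 was above KK in all 11 AP-2 libraries and at least 2-fold above in 10 of them, the exception being RT-112 KA (ratio 1.21, interval 0.405 to 3.86). CAL-29 held 0.39 CPM in KK, 9.57 in KA, 5.03 in WK, 11.4 in WA and 5.29 in WC. In RT-112 the values were 0.39 CPM in KK, 0.47 in KA and 1.5 in KC, with 1.03 in WK, 3.19 in WA and 1.93 in WC. In HT-1376 they were 0.66 CPM in KK, 4.43 in KA and 11.35 in KC, with 53.1 in WK, 22.24 in WA and 25.47 in WC. WK was the highest variant in HT-1376 (80.5-fold above KK, interval 43.7 to 169) and was also above KK in CAL-29 (12.9-fold, 5.97 to 32.8) and RT-112 (2.64-fold, 1.07 to 7.51). WK thus differed from KK in the same direction as the AP-2 variants, and in HT-1376 by more than KA and KC did.

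Among libraries other than the one labelled CAL-29 KC, ALOX15B, NOS3 and HTR3A reached 1 CPM only in HT-1376. ALOX15B was at 0.07 CPM (1 read) in KK, 0.96 in KA and 8.15 in KC, with 23.45 in WK, 11.25 in WA and 28.82 in WC. HTR3A was at 0 in KK, 0.51 CPM in KA and 2.62 in KC, with 1.55 in WK, 2.56 in WA and 11.5 in WC. NOS3 was at 0.2 CPM (3 reads) in KK, 3.74 in KA and 3.12 in KC, with 3.1 in WK, 0.45 in WA and 10.52 in WC. KK was the lowest variant for all 3 genes and WC the highest.

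The folds over KK rest on 0 to 3 reads in KK. For ALOX15B the ratio was 13.7 in KA (interval 2.3 to 613) and 116 in KC (21.8 to 4939.2). HTR3A was at 2.58 times the 3-read limit of KK in KA and 13.3 times in KC. The intervals of KA (0.23 to 0.97 CPM) and KK (0 to 0.24 CPM) overlapped for this gene. NOS3 was 18.7-fold above KK in KA (6.22 to 94.4) and 15.6-fold in KC (5.07 to 79.6), but in the library labelled WA the interval of the ratio, 0.518 to 13.6, held 1. WK alone was 335-fold above KK for ALOX15B (63.7 to 14120.1), 15.5-fold for NOS3 (5.09 to 78.5) and, for HTR3A, at 7.86 times the 3-read limit of KK.

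In RT-112, HTR3A was at 0 in all 6 libraries, which allows up to 0.158 to 0.181 CPM in a library, and NOS3 had at most 2 reads. ALOX15B had at most 5 reads in an RT-112 library, those of WC. In CAL-29 without the library labelled KC, ALOX15B reached 0.22 CPM, HTR3A 0.22 CPM and NOS3 0.39 CPM, the last in KK. NOS3 had 7 reads in KK of CAL-29, 5 in KA and 0 in WK, WA and WC. The library labelled CAL-29 KC held 1.85, 1.01 and 1.97 CPM of ALOX15B, HTR3A and NOS3. A difference from KK in several lines was not detectable for these 3 genes at this depth once that library was set apart.

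**Figure D2:**
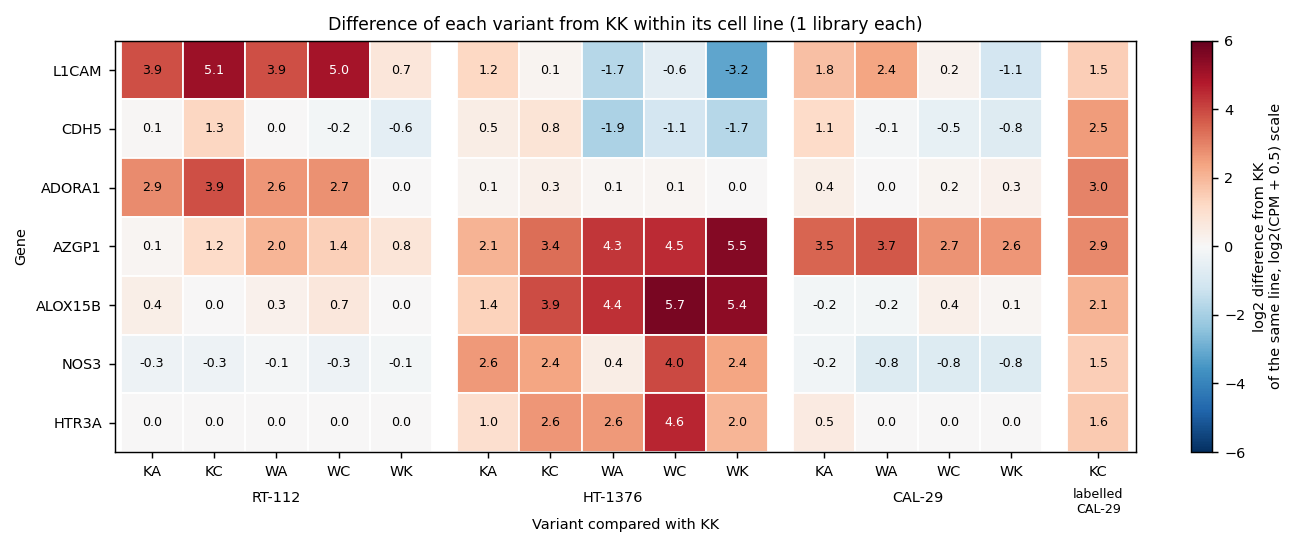
log2 difference from KK of the same cell line (colour and printed value, log2(CPM + 0.5) scale) for each gene (rows) and variant (columns), 1 library each, with the library labelled CAL-29 KC in the last column. L1CAM and ADORA1 carry the high values of RT-112 (up to 5.13 and 3.87), AZGP1, ALOX15B, NOS3 and HTR3A those of HT-1376, where WK is also high (5.53, 5.39, 2.36 and 2.04 in that order), and AZGP1 the highest of CAL-29 (up to 3.74).

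Counted together, 34 of the 77 pairs of a member and an AP-2 library lay at least 2-fold above KK on the log2(CPM + 0.5) scale, 53 were above KK at all, 16 were below and 3 were at least 2-fold below. The 34 pairs comprised 12 of 28 in RT-112, 16 of 28 in HT-1376 and 6 of 21 in CAL-29. With the library labelled CAL-29 KC the count was 41 of 84, and without the libraries labelled RT-112 WA and HT-1376 WA it was 28 of 63. These 2 settings were chosen after the data were seen. The number of AP-2 libraries at least 2-fold above KK was 10 of 11 for AZGP1, 7 for L1CAM, 4 for ADORA1, ALOX15B and HTR3A, 3 for NOS3 and 2 for CDH5. Among all 13022 genes, 24.5% had at least 1 such library, 13.2% at least 2, 7.68% at least 3, 4.38% at least 4, 2.0% at least 5, 1.2% at least 6, 0.491% at least 7, 0.177% at least 8, 0.115% at least 9, 0.0384% at least 10 and 0.00768% all 11. L1CAM, AZGP1 and CDH5 had such a library in at least 2 lines, as did 5.12% of genes, and L1CAM and AZGP1 in all 3, as did 0.676%. Since these values chose the members, nothing is read from the comparison. By library, the share of all genes at least 2-fold above KK was 1.21% in KA, 1.94% in KC, 3.53% in WA and 3.03% in WC of RT-112. The same share was 5.18%, 7.64%, 9.03% and 9.11% in these variants of HT-1376, and 2.93%, 3.72% and 6.46% in KA, WA and WC of CAL-29.

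As a mean over lines, KA differed from KK by a log2FC of 2.31 ± 1.4 for L1CAM, 1.9 ± 1.7 for AZGP1, 1.14 ± 1.49 for ADORA1 and 0.56 ± 0.55 for CDH5 (SD, n = 3). KC, in RT-112 and HT-1376, differed by 2.64 ± 3.52 for L1CAM, 2.26 ± 1.54 for AZGP1, 2.1 ± 2.49 for ADORA1 and 1.07 ± 0.34 for CDH5 (SD, n = 2). The SD between lines was larger than the mean in KA for ADORA1, ALOX15B and NOS3, and in KC for L1CAM, ADORA1, ALOX15B, NOS3 and HTR3A. In limma over all genes, 0 of 13022 genes (0%) passed an adjusted p of 0.05 in KA, KC, WA, WC or WK against KK, and 7, 25, 37, 84 and 38 genes in that order had an unadjusted p under 0.05.

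The design also asks whether WWOX alters the AP-2 difference. For L1CAM the log2 difference of AP-2α was 3.89 without WWOX (KA/KK) and 3.16 with it (WA/WK) in RT-112, 1.24 and 1.48 in HT-1376, and 1.8 and 3.48 in CAL-29. That of AP-2γ was 5.13 (KC/KK) and 4.26 (WC/WK) in RT-112 and 0.15 and 2.55 in HT-1376. L1CAM thus showed a difference above 1 between libraries as labelled in each of these pairs except KC/KK of HT-1376, with and without WWOX. Its starting level differed, because WK was at 0.106 of KK in HT-1376 (interval 0.0904 to 0.124) and 0.444 in CAL-29 (0.355 to 0.551) but 2.51-fold above KK in RT-112 (1.01 to 7.16). WA and WC of HT-1376 were below KK, at 0.305 and 0.65 of its L1CAM level. As given above, TFAP2A was not above WK in the library labelled HT-1376 WA. The one labelled RT-112 WA held TFAP2C at 179.87 CPM. The part of these AP-2 levels in the L1CAM differences was not tested.

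ADORA1 in RT-112 had a log2 difference of 2.85 for AP-2α without WWOX and 2.64 with it, and of 3.87 and 2.73 for AP-2γ. The AP-2γ variant with WWOX, WC, was at 0.424 of KC (interval 0.309 to 0.575), and WA at 0.848 of KA (0.591 to 1.21). In this line ADORA1 was therefore lower in WC than in KC beyond counting error, and not in WA than in KA. TFAP2C in WC was also at 0.541 of KC (interval 0.515 to 0.569), and WWOX was at 18.45 against 25.87 CPM. Of all genes, 7.87% were at least 2-fold lower in this pair. The part of the TFAP2C level in the ADORA1 difference was not tested.

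In HT-1376 the AP-2 difference turned sign for AZGP1 with both factors and for ALOX15B with AP-2α. For AZGP1 the log2 difference of AP-2α was 2.09 without WWOX and -1.24 with it, and that of AP-2γ 3.35 and -1.05. For ALOX15B it was 1.36 and -1.03 with AP-2α, and 3.92 and 0.29 with AP-2γ. WA was at 0.419 of WK for AZGP1 (interval 0.369 to 0.474) and 0.48 for ALOX15B (0.4 to 0.574), so both genes were lower in the library labelled WA than in WK, although KA was above KK. TFAP2A, as given above, was not higher in that library than in WK. NOS3 also turned sign with AP-2α, at 2.6 without WWOX and -1.92 with it, but was higher with AP-2γ in either setting, at 2.37 and 1.61. HTR3A was higher with AP-2γ in both, at 2.64 and 2.55. In CAL-29 the AP-2α difference of AZGP1 was 3.5 without WWOX and 1.11 with it. Each of these is a difference between single libraries and shares KK or WK with the others, and the interaction was not tested since the rule used these values.

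**Figure D3:**
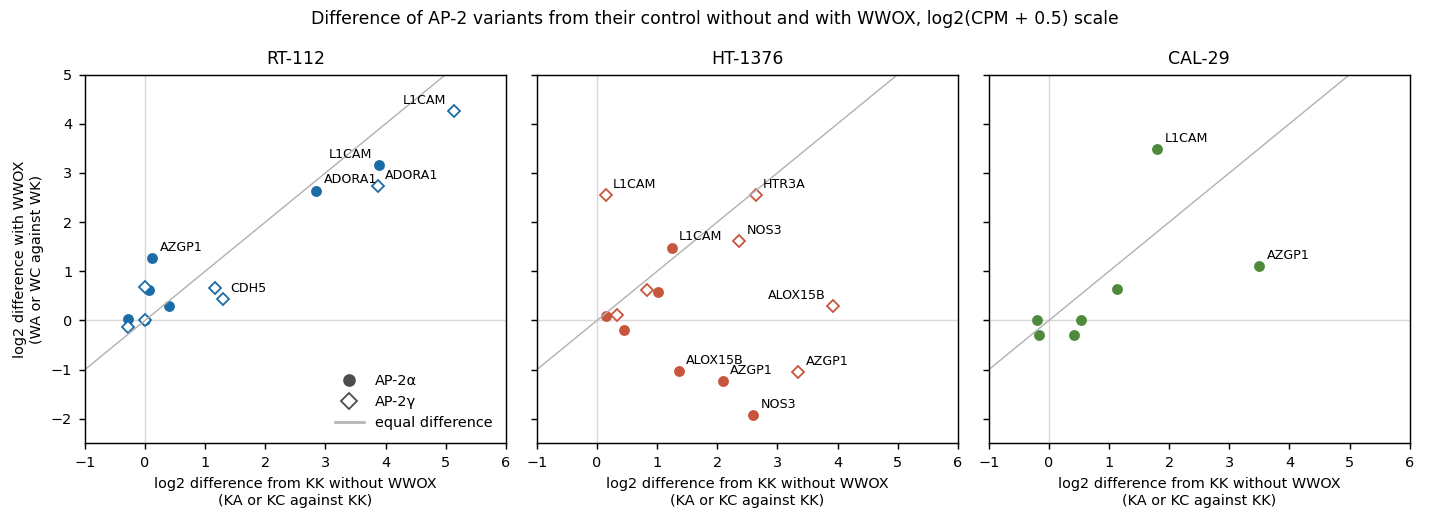
log2 difference of AP-2 variants from their control without WWOX (x axis, KA or KC against KK) and with WWOX (y axis, WA or WC against WK) for the 7 genes in each line, with filled circles for AP-2α, open diamonds for AP-2γ and a line of equal differences. L1CAM and ADORA1 are the points above 2 on both axes in RT-112, while in HT-1376 AZGP1 (2.09 and -1.24 with AP-2α) and NOS3 (2.6 and -1.92 with AP-2α) lie below 0 on the y axis. The library labelled CAL-29 KC is left out.

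WWOX variants were then compared with their controls, WK with KK, WA with KA and WC with KC, in 8 pairs without the library labelled CAL-29 KC. CDH5 was lower in all 8 pairs, with log2 differences from -0.05 (RT-112 WA/KA, within counting error) to -2.37 (HT-1376 WA/KA). Its ratio interval in RT-112 WK/KK also held 1 (0.00356 to 1.35). AZGP1 was higher in all 8, from 0.24 (CAL-29 WA/KA) to 5.53 (HT-1376 WK/KK). Its intervals held 1 in CAL-29 WA/KA (0.97 to 1.47) and RT-112 WC/KC (0.752 to 2.22). These counts are on CPM without TMM scaling. With the TMM factors of CAL-29 WA (1.5677) and KA (1.1847), AZGP1 would not be higher in that pair. Over all genes 0.376% were lower and 1.32% higher in all 8 pairs, and the pairs of a line share its background, so they are not 8 independent observations. By pair, 1.44% of genes were at least 2-fold higher and 0.261% lower in WK/KK of RT-112, 2.93% and 2.01% in WA/KA, and 1.99% and 7.87% in WC/KC. In HT-1376 these shares were 8.15% and 14%, 5.29% and 9.05%, and 6.32% and 13.1%, and in CAL-29 8.3% and 16.2% in WK/KK and 22.3% and 2.86% in WA/KA. KK entered both the rule and the WK pairs.

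HT-1376 carried the largest of these differences for each member except ADORA1. AZGP1 was higher by 5.53, 2.21 and 1.13 and ALOX15B by 5.39, 3.01 and 1.76 in WK/KK, WA/KA and WC/KC. HTR3A was higher by 2.04, 1.6 and 1.94, and 2.32% of all genes were at least 2-fold higher in the 3 pairs. CDH5 differed by -1.72, -2.37 and -1.93 (2.53% of genes were at least 2-fold lower in the 3 pairs) and L1CAM by -3.17, -2.93 and -0.77. AZGP1 and ALOX15B were higher in every W variant than in any K variant of HT-1376, as were 12.8% of genes, and L1CAM and CDH5 were lower, as were 22.8%. In HT-1376 every AP-2 library lay above both KK and WK for ADORA1 alone among the members (3.05% of genes), with ratios to KK and WK whose intervals held 1. The corresponding members were L1CAM and AZGP1 in CAL-29 (4.29%) and L1CAM and ADORA1 in RT-112 (11.3%).

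Markers of other cells also differed between the same HT-1376 libraries. The 8 fibroblast markers, of which 5 had a row, summed to 5.4, 14.8 and 16.1 CPM in KK, KA and KC and to 41, 64 and 55.4 CPM in WK, WA and WC. The 10 neuronal and neuroendocrine markers, of which 4 had a row, summed to 3.8, 9 and 13.1 CPM in the K variants and 46.1, 46.9 and 45.6 CPM in the W variants. The endothelial sum was 15 to 16.8 CPM in the K variants and 6.8 to 20.8 CPM in the W variants, and the epithelial sum 13077.9 to 14878.3 and 9790.3 to 10889.8 CPM. Each library comes from a culture of a single carcinoma line, so these sums are marker RNA of that culture and do not count fibroblasts, neurons or endothelial cells. Their part in the member differences was not tested. A change in the share of cells that express a marker and a change in RNA per cell cannot be told apart in these bulk libraries.

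**Figure D4:**
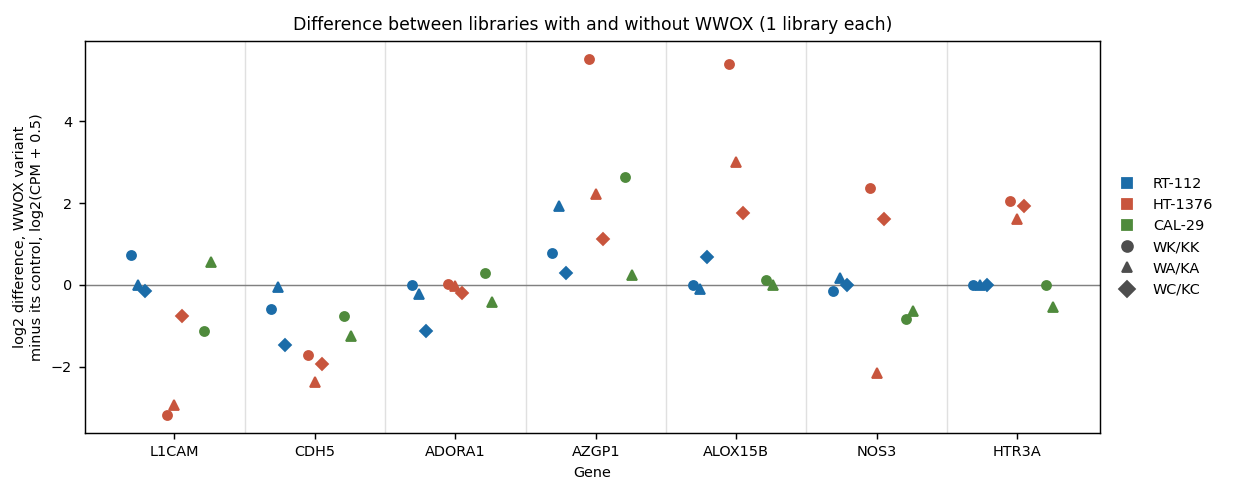
log2 difference between a WWOX variant and its control (y axis, log2(CPM + 0.5) scale) for each gene (x axis), with colour for the line and shape for the pair (WK/KK, WA/KA, WC/KC), 1 library on each side. CDH5 lies below 0 and AZGP1 above 0 in all 8 pairs, and ALOX15B and HTR3A of HT-1376 lie between 1.6 and 5.39.

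The rule set AP-2 variants against KK. The comparisons without KK, WA with KA, WC with KC, KC with KA and WC with WA, were tested in limma over 13022 genes, although the rule had used the AP-2 values on both sides. In each, 0 genes (0%) passed an adjusted p of 0.05, and 14, 130, 8 and 12 genes had an unadjusted p under 0.05. DESeq2 on the recovered reads called 1 gene in WA/KA and 1 in WC/KC, neither a member. CDH5 was among the 13022 genes only through the library labelled CAL-29 KC, so its values are given as a description, a log2FC of -1.22 in WA/KA, lower in 3 of 3 lines, and of -1.7 in WC/KC, lower in both lines. In the limma fit over all genes without a filter on low values its adjusted p was 1 in both. AZGP1 differed by 1.46 (SE 1.25) in WA/KA, with a limma adjusted p of 0.9999. On CPM without TMM scaling it was higher in 3 of 3 lines, in CAL-29 within counting error. L1CAM differed by 0.07 (SE 2.21) in KC/KA and 0.02 (SE 1.39) in WC/WA, and ADORA1 by 0.6 (SE 1.29) and 0.09 (SE 1.37). NOS3 and HTR3A reached 5 CPM only in WC of HT-1376 (10.52 and 11.5 CPM). They passed the filter through that library alone, so nothing is read from their WC/KC and WC/WA fits.

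No member passed the threshold, the spread between lines was wide, and these misses do not show that the variants were alike. With 1 library per line and no block for the line, these SEs and p-values include the differences in level between lines. They do not measure the spread of the within-line differences alone. For ADORA1 in WC/WA the SE was 1.37. Its log2 differences were 0.1 in RT-112, 0 in HT-1376 and, at or under 3 reads on both sides, 0.16 in CAL-29. Within RT-112, KC held 2.41-fold more L1CAM than KA (interval 2.07 to 2.81) and 2.16-fold more ADORA1 (1.62 to 2.88), whereas in HT-1376 KC held 0.469 of the L1CAM of KA (0.442 to 0.498).

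The patterns of the members were compared over libraries. After centring within lines, over the 17 libraries without the one labelled CAL-29 KC, log2 values of ALOX15B correlated with those of HTR3A (r = 0.85), AZGP1 (0.75) and NOS3 (0.53), and those of L1CAM with ADORA1 (0.72) and CDH5 (0.65). Between these 4 and these 3 genes, r ranged from -0.51 (CDH5 and ALOX15B) to 0.18 (ADORA1 and AZGP1). Libraries of a line share their background, so these are descriptions of the 17 libraries.

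Genes outside the 7 with the most similar pattern were found in the same way. For ADORA1 they were SUSD2 (r = 0.988), a membrane protein with a sushi domain, and ADCY5 (r = 0.941), an adenylyl cyclase. SUSD2 was at 0.06 CPM in RT-112 KK and 0.54 in WK, and at 26.36 in KA, 90.27 in KC, 29.46 in WA and 33.94 in WC. It had at most 0.72 CPM in a library of another line. For L1CAM they were GJA5 (r = 0.879), the gap junction protein connexin 40, and BOC (r = 0.817), a hedgehog co-receptor. GJA5 was at 112.79, 135.67 and 49.92 CPM in KK, KA and KC of HT-1376 and at 18.35 to 35.08 CPM in its W variants. In RT-112 it was at 0.05 to 0.06 CPM without AP-2 and 1.79 to 3.9 CPM with it, with KC and WC above WA and KA as for L1CAM.

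For ALOX15B they were HAND1 (r = 0.965) and MSC (r = 0.958), both encoding basic helix-loop-helix factors, and for HTR3A the cytokine gene IL16 (r = 0.978) and HHIPL2 (r = 0.949). HAND1 was at 0.13 CPM in HT-1376 KK, 0.85 in KA and 4.04 in KC, with 16.4 in WK, 10.48 in WA and 16.49 in WC, and IL16 was highest in WC (6.68 CPM). KK was thus the lowest HT-1376 variant for HAND1 and IL16 too. For NOS3 the most similar were CDSN (r = 0.903) and CPXM2 (0.881), for AZGP1 GALNT14 (0.878) and PRDM1 (0.873), and for CDH5 PSG1 (0.851) and SLC4A8 (0.849).

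Genes near the members were counted next. Of 27 genes whose start lies within 100 kb of a member's start, 19 passed 5 CPM in at least 1 library, and the median number of AP-2 libraries at least 2-fold above KK was 0. HES7, a transcriptional repressor of the somite clock 85072 bases from ALOX15B, was the single neighbour of these 19 with 4 such libraries, and it is named because of that count. ARHGAP4, the nearest to L1CAM, ranged from 63.33 to 104.67 CPM over the 18 libraries, and ZKSCAN1, the nearest to AZGP1, had 0 AP-2 libraries at least 2-fold above KK. ATG9B, which overlaps NOS3, was at 2.1 CPM in KK, 3.8 in KA and 2.48 in KC, with 2.29 in WK, 1.53 in WA and 6.57 in WC of HT-1376, so that WC was the highest for both genes.

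Genes of the members' own pathways were counted from lists, none of whose genes passed an adjusted p of 0.05 in limma in any comparison with KK. Over all 13022 genes, the share with a mean at least 2-fold above KK was 1.08% in KA, 3.09% in KC, 2.86% in WA, 3.01% in WC and 3.03% in WK, and the share at least 2-fold below was 0.154%, 0.315%, 0.561%, 5.15% and 2.04%. Of 17 tested genes often described as AP-2 targets, 2 were at least 2-fold higher in the mean of KA and 3 in that of KC, with 4 in WA, 4 in WC and 3 in WK, with list medians of 0.07, 0.39, 0.37, 0.34 and 0.43 against -0.04, 0.05, 0.01, -0.25 and -0.08 over all genes. IGFBP5, an insulin-like growth factor binding protein, had a log2FC of 1.67 in KA, 3 in KC, 2.68 in WA and 3.71 in WC, and of 2.47 in WK. KRT5, a basal keratin, had 1.51 in KA and 2.05 in WC. In RT-112, however, KRT5 was lower than in KK (29.75 CPM), at 21.68 CPM in KA and 17.72 in WC. As with AZGP1, IGFBP5 was also above KK in WK, by an amount that differed between lines. It was at 41.16 against 0.5 CPM in CAL-29, 1.55 against 0.26 CPM in HT-1376 and 1.36 against 0.72 CPM in RT-112.

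Of the 7 tested AP-2 family genes and cofactors, TFAP2C alone was at least 2-fold higher in the mean of KC (log2FC 1.31) and WC (1.09), and TFAP2A had 0.79 in KA. Of the 5 tested L1 family and neural adhesion genes, which include the L1CAM relative CHL1 and the L1CAM sheddases ADAM10 and ADAM17, 0 were at least 2-fold higher in KA, WA or WC, 1, NRP1, in KC (1.1) and 1, CHL1, in WK (1.13). Of 6 tested cadherin and catenin genes, 0 were at least 2-fold higher in any variant, and the catenins CTNNB1 and CTNNA1 differed by -1.21 and -1.11 in WC/KC, where 5.28% of all genes were at least 2-fold lower.

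Of 7 tested adenosine genes, 0 were at least 2-fold higher in KA, 1 in KC, 1 in WA, 2 in WC and 1 in WK. ADA, a deaminase gene, had 1.05 in KC, 1.03 in WA and 1.02 in WC, and ADORA2A, a Gs-coupled adenosine receptor, had 0.41 in KA, 1.8 in WC and 1.92 in WK. ADA in KC was higher than in KK in HT-1376 (14.82 against 2.1 CPM) but lower in RT-112 (79.15 against 108.59 CPM). Of the 6 tested arachidonic acid oxygenases and related genes, 0 were at least 2-fold higher in KA, 1 in KC, 1 in WA, 2 in WC and 3 in WK, the last being ALOX5 (1.69), PTGS1 (1.59) and PTGS2 (1.55). In HT-1376 the cyclooxygenase PTGS1 was at 1.51 CPM in KK, 10.78 in KA and 9.93 in KC, with 10.84 in WK, 9.91 in WA and 45.69 in WC. As for NOS3, KK was its lowest and WC its highest variant.

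Of 11 tested nitric oxide genes, 0 were at least 2-fold higher in KA, WA, WC or WK and 1, the chaperone gene HSP90AA1, in KC (1.22), and 3 were at least 2-fold lower in WC/KC. HTR7, the single serotonin receptor tested, had 0.5 in KA and -0.36 in KC, with 1.27 in WA, 0.84 in WC and 0.97 in WK. Of 7 tested apocrine and androgen-regulated secretory genes, 1 was at least 2-fold higher in KA, 1 in KC, 0 in WA, 1 in WC and 2 in WK. MSMB had 1.09 in KA, 1.65 in KC and 1.07 in WK, and CLU, a secreted chaperone, differed by -1.82 in WK, -2.28 in WA and -1.69 in WC. MSMB was at 11.21 CPM in KA and 18.12 in KC of RT-112 against 1.16 in KK. It was at most at 0.28 CPM in KA and KC of the other lines.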

How the data were processed

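CAGE-seq of 18 libraries was analysed. The authors mapped 75 nt reads to hg38 with BWA and then, for unmapped reads, HISAT2 (2.0.5 in the submitters' processing notes), clustered and filtered tags, and deposited gene values in CPM with 2 decimals, and the rule that assigns tags to genes is not given in the sources used here. Reads were recovered from the CPM steps (99.97% to 99.99% of values came out whole at a tolerance of 0.005 CPM). Symbols and positions came from GENCODE 44 (16553 of 16575 genes matched), promoters from RefSeq. The members and lists were chosen with earlier results of these data known.

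The 13022 genes reaching 5 CPM in 1 library or more were transformed to log2(CPM + 0.5) and fitted in limma 3.58.1 (R 4.3.3) to the 6 variants without a block, with Benjamini-Hochberg adjustment. The filter is that of the study, which used voom after TMM scaling and whose design formula is not given in the sources used here. Comparisons with KC used the 12 libraries of RT-112 and HT-1376. The other fits used all 18 libraries, so the one labelled CAL-29 KC entered their estimate of the spread, and the filter of every fit. The cell line pairs the libraries by design: residuals of libraries of the same line correlated at 0.036 to 0.881 in CAL-29, 0.588 to 0.896 in HT-1376 and 0.742 to 0.915 in RT-112. Member differences from KK and WK are given without a test, and for comparisons with KK only counts over all genes and lists are taken from the fit. Named genes were the members, the overexpressed genes, up to 4 genes per list, up to 3 nearest neighbours within 100 kb and the 2 most similar genes per member. Alternatives were pseudocounts of 0.05 and 2 CPM, other filters, TMM scaling, the cell line as a block, each line left out, limma-voom, edgeR 4.0.16 and DESeq2 1.42.0 on recovered reads, and other sets of libraries. Python 3.11.15, NumPy 2.4.6, pandas 2.3.3, SciPy 1.17.1 and matplotlib 3.10.9 were used. The per-library files held the same values as the joint table and were not used.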

Additional observations from a re-analysis of the deposited data

Results flagged for a closer look

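In the library labelled CAL-29 KC, which entered the WA/KA and WC/WA fits through the estimate of the spread and every fit through the filter on low values, all 7 genes lay above CAL-29 KK with intervals that did not overlap. L1CAM was at 42.68 CPM against 15.08 CPM in KK, CDH5, which passed that filter through this library alone, at 5.07 against 0.45 CPM and ADORA1 at 3.46 CPM against 0. AZGP1 was at 6.08 against 0.39 CPM, ALOX15B at 1.85 against 0.06 CPM, NOS3 at 1.97 against 0.39 CPM and HTR3A at 1.01 CPM against 0. The other CAL-29 libraries held at most 0.17 CPM of ADORA1 and 1.6 CPM of CDH5, and HT-1376 KC held 7.45 and 4.11 CPM. Over genes, the library correlated at 0.968 with HT-1376 KK and 0.72 with CAL-29 KK, and the part of this in the 7 values was not tested.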

How the results depend on the processing

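In the 4 tested comparisons, 52 of 54 alternative counts of genes past an adjusted p of 0.05 were 0, as reported, and DESeq2 gave 1 gene in WA/KA and 1 in WC/KC. With the cell line as a replicate block, 0 genes passed in each comparison, and 161, 1426, 146 and 704 genes in WA/KA, WC/KC, KC/KA and WC/WA had an unadjusted p under 0.05 (14, 130, 8 and 12 without the block). The block changed no call. Of 394 member values 19 turned sign, none past the threshold in either fit. The 394 include NOS3 and HTR3A in WC/KC and WC/WA, from which nothing is read, as given above. The pseudocount of 0.05 CPM gave -0.07 for HTR3A in WA/KA and voom -0.81, ALOX15B in KC/KA -0.25 in voom, L1CAM in KC/KA -0.57 in edgeR, -0.53 in DESeq2 and -0.06 over all 18 libraries, NOS3 over all 18 libraries -0.23 in WC/KC and 0.48 in KC/KA, and AZGP1 in WC/WA 0.1 in edgeR and 0.15 in DESeq2. Leaving out each line gave -1.46 to 0.28 for L1CAM in WA/KA, -0.06 to 1.5 for ALOX15B in WA/KA, -0.26 to 0.8 for HTR3A in WA/KA, -1.09 to 1.24 for L1CAM in KC/KA, -0.4 to 2.57 for ALOX15B in KC/KA, -0.52 to 1.09 for L1CAM in WC/WA, -0.29 to 0.31 for CDH5 in WC/WA and -0.08 to 1.77 for NOS3 in WC/WA. The cause was not tested. With a line left out of WC/KC or KC/KA 1 line remains, so these are values without a test. The median of all genes in WC/WA was -0.26, and -0.01 with TMM, so member values there are read relative to it.

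Of 168 mean differences from KK under an alternative, 162 moved by less than the SD between lines. Leaving out a line cannot move a mean of so few lines by that SD. Those settings were therefore among the 162 whatever the values, and the count does not measure how stable the means were. The mean of NOS3 in KA/KK was -0.24 without HT-1376, against 0.71 with it, its KC/KK and WC/KK means were -0.29 and -0.56 without that line, and that of L1CAM in WC/KK was -0.19 without RT-112, against 1.54. HT-1376 decided HTR3A and ALOX15B, whose KC/KK values without it were 0. Depth limits ALOX15B, HTR3A and NOS3 outside HT-1376, where most libraries had 3 reads or fewer.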
